A study of Mus musculus with 2 samples.

Results

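The Foxp4 peak list held 285 simple-repeat peaks among 3317 peaks, 8.59% of the list (exact Clopper-Pearson 95% interval 7.66% to 9.60%). They were chosen from the list's annotation alone: a peak was taken when the deposited detailed annotation of its position named a simple tandem repeat, a stretch in which a unit of a few bases is repeated head to tail. The annotation gives each repeat's unit, and a unit, its rotations and its reverse complement were counted as 1 unit and written in the form with most T, so that CAAA on the deposited strand is TTTG here. Within this list, 128 of the members lay in introns and 157 between genes. None of the 372 peaks of the other classes, 278 of them promoter peaks, carries any repeat annotation in the file, so simple-repeat peaks were set against the other 2660 intron and intergenic peaks.

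The cells were stromal vascular fraction cells, the mixed precursor-rich cells left when mature fat cells are removed, from inguinal white fat of C57BL/6 mice. They had been grown for 3 days in 20% FBS and, once confluent, induced towards beige fat cells for 48 h in 10% FBS with T3 (50 nM), troglitazone (5 µM), dexamethasone (1 µM), insulin (5 µg/ml) and isobutylmethylxanthine (0.5 mM). The study comprised 1 ChIP library made with a Foxp4 antibody and 1 input library from cells handled alike, and the input was not analysed here. The labels name no genetic alteration, and none gives the number or age of the mice. Cell identity cannot be checked in a peak list. With 1 library there is no replicate error, so every interval printed with a share or a median covers counting error over peaks only, and the depth behind each peak is unknown.

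Foxp4 belongs to the Foxp branch of the forkhead transcription factors, which also holds Foxp1, Foxp2 and Foxp3. Forkhead domains recognise short T-rich motifs whose shared core is TGTTT, and Foxp proteins pair through a leucine zipper. Foxp3, the member that defines regulatory T cells, is known to assemble as a multimer on tandem repeats made of a few T and 1 G. Short reads from simple repeats can match many places, and the sources used here do not say what was done with such reads.

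Of the 5 repeat units made of T and 1 G that recur in the list, which carry 256 of the 285 members, the 4 most frequent are shown as arrays unrolled from their unit; capitals mark copies of the core TGTTT, counted without overlap. These are model arrays of 24 bases and not the genomic DNA of any 1 peak.
TG array: tgtgtgtgtgtgtgtgtgtgtgtg
TTG array: ttgttgttgttgttgttgttgttg
TTTG array: ttTGTTTgttTGTTTgttTGTTTg
TTTTTG array: ttttTGTTTtTGTTTtTGTTTttg
The core can be read from arrays of TTTG, of TTTTG and of TTTTTG, and from no array of TG or TTG on either strand. It was held by the arrays of 3 of the 20 distinct units found.

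The most frequent unit was TTTG with 93 peaks, followed by TTG with 83, TG with 44, TTTTTG with 27 and TTTTG with 9. The other 29 peaks had 15 further units, of which T and TC had 6 peaks each and TTTA had 5. By unit length there were 6 peaks on units of 1 base, 50 on 2, 84 on 3, 104 on 4, 11 on 5 and 30 on 6. The units with more than 1 T and a single G (TTG to TTTTTG, called TnG repeats here) made up 212 peaks, 74.4% of the members. How common each unit is in the mouse genome was not compared, so these shares describe the peaks and not a preference. The deposited letters named the T-rich strand for 144 peaks and the A-rich strand for 140, and 1 unit reads the same on both, so neither strand dominated.

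Each peak has a score from the authors' list, the only measure of strength used here, on which a higher value is a stronger call. Simple-repeat peaks had a median score of 94 (quartiles 60 and 164, 95% interval of the median 85 to 109), against 62 (quartiles 40 and 98, interval 61 to 65) for the other intron and intergenic peaks. The 442 peaks annotated to transposable elements (LINE, SINE, LTR and DNA elements), a comparison with another kind of repeat, had a median of 60 (interval 58 to 67). By unit length the median was 125.5 for 1 base, 81.5 for 2, 120 for 3, 93.5 for 4, 81 for 5 and 89 for 6. The interval for 3 bases (94 to 147) overlapped that for 2 bases (65 to 102) slightly and that for 4 bases (72 to 121) more widely. Overlap of intervals does not decide whether medians differ, and differences between the lengths were not tested. A score of 104 or more, the upper quartile of all peaks, was reached by 129 simple-repeat peaks (45.3%, interval 39.4% to 51.2%), against 25.2% of all peaks and 22.8% of the other intron and intergenic peaks. The share by length was 32% (16 of 50) for 2 bases, 53.6% (45 of 84) for 3, 47.1% (49 of 104) for 4 and 46.7% (14 of 30) for 6. It was 3 of 6 peaks for 1 base and 2 of 11 for 5 bases.

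**Figure D1:**
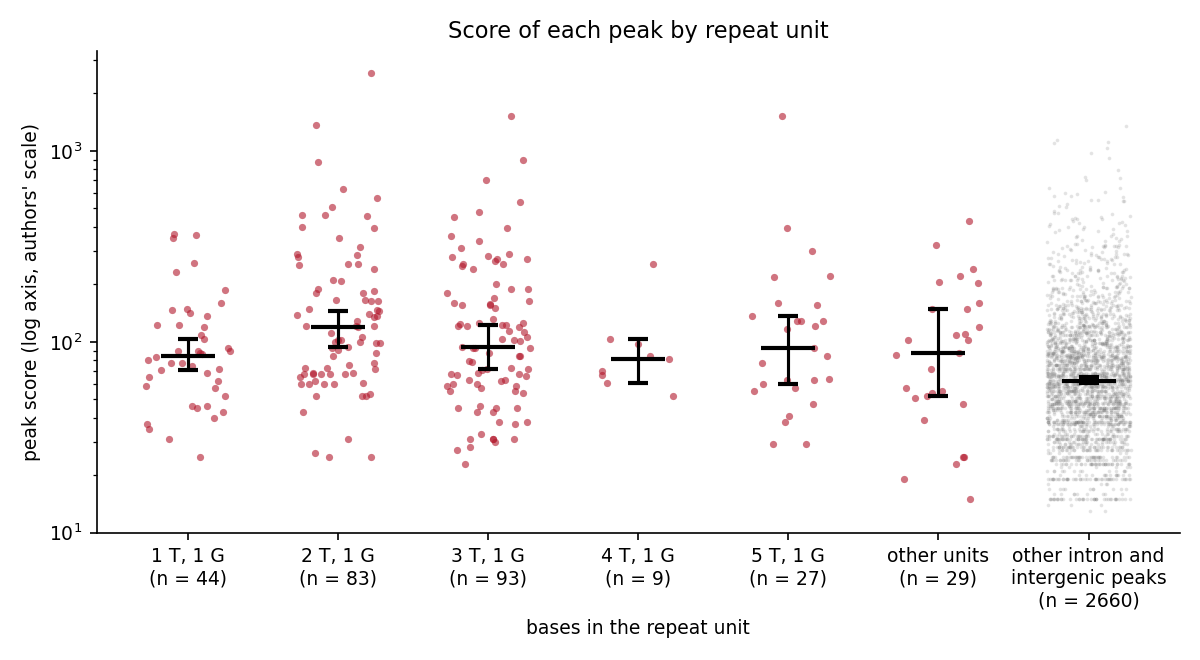
Score of every simple-repeat peak by repeat unit, on a log axis, beside the other intron and intergenic peaks; each point is a peak and the bars mark medians with their exact 95% intervals. The medians of the named units lie between 81 (TTTTG) and 119 (TTG), all above the 62 of the other intron and intergenic peaks, and the units overlap one another widely.

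Peaks on arrays that hold the forkhead core and peaks on arrays that lack it had similar scores. The 129 peaks with the core in their array had a median score of 93 (quartiles 60 and 159, interval 73 to 119), and the 156 without it had 99 (quartiles 62 and 165, interval 86 to 119). The upper quartile of score held 44.96% of the peaks with the core and 45.5% of those without it. Their median widths were 384 bp with the core and 365.5 bp without it. TTG, whose array lacks the core, had the highest median of the named units at 119 (interval 94 to 145), TTTG had 94 (interval 72 to 122) and TG 84.5 (interval 71 to 103). The longer forkhead sequences TGTTTA and TGTTTAC were in the array of 0 members. The members' own genomic letters were not read, so interruptions and flanks that may hold a core are not part of this count.

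The 10 highest-scoring simple-repeat peaks were on repeats of TTG, of TTTG or of TTTTTG, with scores from 539 to 2569. The highest score of the whole list, 2569, was on a TTG repeat in intron 1 of 8 of Ror2, a receptor for Wnt5a, at chr13:53275734-53276533 (mm10). A TTTG peak 63.8 kb downstream of the start of Ptger2, a prostaglandin E2 receptor, and a TTTTTG peak in intron 13 of 50 of Col3a1, which encodes a fibrillar collagen, both scored 1519. The Ptger2 peak lay at chr14:45051478-45052379 and the Col3a1 peak at chr1:45329203-45330077. A TTG peak nearest to the transcript 1700116B05Rik followed at 1370. Below these 4 the scores dropped to 898 for a TTTG peak 14.6 kb upstream of Rnd1, which encodes a small GTP-binding protein, and to 875 for a TTG peak near Rn4.5s, a gene of a small repetitive nuclear RNA. The remaining 4 were nearest to Manea, a Golgi mannosidase (702), 4930515L03Rik (633), Btn1a1, a butyrophilin (564), and Limk1, the kinase of cofilin (539). Only Ror2 and Col3a1 among the 10 had the peak in an intron, and the other 8 peaks were intergenic.

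Units of 1, 2 and 5 bases, with 6, 50 and 11 peaks, had lower tops than the other lengths, at 431, 369 and 257. The strongest TG peaks were nearest to Pim1, a serine/threonine kinase, with a score of 369 at 21.2 kb upstream, to Prkch, a protein kinase C, with 363 in intron 10 of 13, and to Xrra1 with 349 in intron 2 of 18. Among units of 5 bases a TTTTG peak in intron 24 of 42 of Ank3, which encodes an ankyrin, had 257, a TTGTG peak nearest to 1700012I11Rik had 221 and a TTTTG peak in intron 5 of 15 of Kcnh8, a potassium channel gene, had 103. After Col3a1, the units of 6 bases were led by TTTTTG peaks nearest to Slc12a2, a sodium, potassium and chloride cotransporter, with 394 and to Apol7a, of the apolipoprotein L family, with 300. The 10 highest members, which reached down to 539, held no peak on TG, whose top was 369.

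Simple-repeat peaks were slightly narrower than the others, with intervals of the medians that did not overlap, and their score went more closely with their width. The median width was 377 bp (quartiles 322 and 462, interval 360 to 388, range 288 to 1040 bp), against 395 bp (quartiles 334 and 488, interval 391 to 401, up to 2267 bp) for the other intron and intergenic peaks. By unit length it was 445 bp for 1 base, 346 bp for 2, 378.5 bp for 3, 385 bp for 4, 377 bp for 5 and 353.5 bp for 6. The intervals for 2 bases (335 to 383 bp) and 4 bases (369 to 417 bp) overlapped. Spearman's rho of score with width, across peaks of this 1 library, was 0.68 over the 285 simple-repeat peaks and 0.37 over the 2660 others, and 0.40 over the transposable-element peaks. It was 0.62 for TG, 0.71 for TTG, 0.79 for TTTG and 0.65 for TTTTTG, and lower, at 0.23 for the 9 TTTTG peaks and 0.35 for the 29 peaks on other units. The peaks share 1 library and 1 peak list, so rho is a description and carries no p-value.

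The gap in score widened with width. Among peaks of at most 333 bp, up to the lower quartile of all widths, the median score was 60 for 88 simple-repeat peaks (interval 53 to 68) and 48 for 657 others (interval 46 to 51). Above 487 bp, the upper quartile, it was 284.5 for 54 simple-repeat peaks (interval 255 to 363) and 92 for 667 others (interval 84 to 98). From 333 to 393 bp it was 86.5 for simple-repeat peaks and 58 for others, and from 393 to 487 bp it was 139 for simple-repeat peaks and 76 for others. Repeat length, base composition and mappability were not read, and their part in this was not tested.

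**Figure D2:**
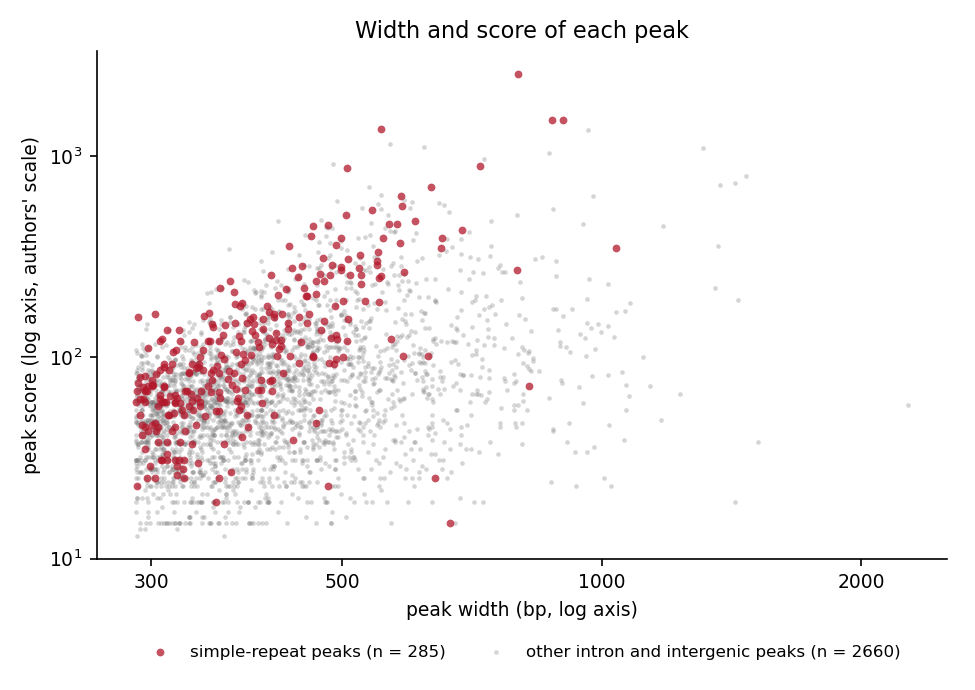
Width in bp and score of each peak, both on log axes, for the 285 simple-repeat peaks and the 2660 other intron and intergenic peaks. Scores of simple-repeat peaks climb with width (rho 0.68), while the others fill the wide, low-scoring corner (rho 0.37).

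The median distance from the midpoint of a simple-repeat peak to the nearest start site, as the file gives it, was 29.999 kb (quartiles 11.9 and 85.1 kb, interval 22.3 to 36.7 kb). That of the other intron and intergenic peaks was 37.3 kb (quartiles 13.7 and 94.4 kb, interval 34.5 to 40.1 kb), a little farther. By unit length the median was 47.4 kb for 1 base, 21.5 kb for 2, 28.8 kb for 3, 28.9 kb for 4, 18.8 kb for 5 and 32.1 kb for 6. The intervals of the lengths with 30 or more peaks all overlapped: 14.7 to 38.7 kb for 2 bases, 15.9 to 41.6 kb for 3, 18.5 to 46.01 kb for 4 and 22.3 to 64.3 kb for 6. Within introns the medians were 19.3 kb (interval 14.5 to 27.95 kb) for simple-repeat peaks and 27.8 kb (interval 25.2 to 31.4 kb) for the others. Between genes they were 41.6 kb (interval 29.999 to 61.6 kb) for simple-repeat peaks and 45.98 kb (interval 42.0 to 49.9 kb) for the others. In each of these comparisons the intervals of the medians overlapped. Within 50 kb of a start site lay 77.3% of simple-repeat peaks in introns (interval 69.1% to 84.3%), against 65.3% of the other intron peaks (interval 62.4% to 68.0%). These intervals did not overlap. Those for intron peaks within 10 kb did, at 32.8% (24.8% to 41.7%) against 26.2% (23.7% to 28.9%). So did those within 100 kb, at 89.8% (83.3% to 94.5%) against 84.2% (81.9% to 86.2%). Between genes the share within 50 kb was 52.2% for simple-repeat peaks and 52.7% for the others. The 50 kb window was chosen after its values were seen, so the difference there was not tested.

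**Figure D3:**
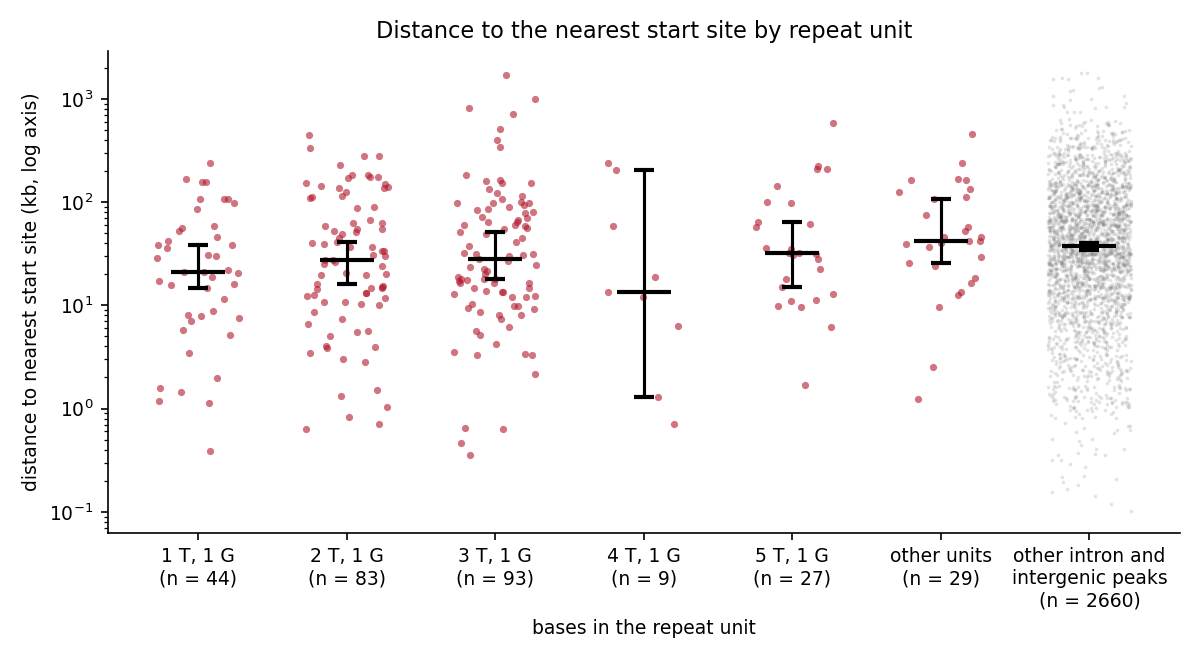
Absolute distance to the nearest start site in kb, on a log axis, by repeat unit and for the other intron and intergenic peaks; each point is a peak and the bars mark medians with their exact 95% intervals. The medians of the named units run from 13.4 kb (TTTTG, 9 peaks) to 32.01 kb (TTTTTG), with wide intervals, beside 37.3 kb for the other peaks.

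Few members were close to a start site. Within 3 kb lay 23 simple-repeat peaks (8.07%, interval 5.18% to 11.9%), against 205 of the others (7.71%) and 7.74% of all intron and intergenic peaks. By length, 7 of 50 peaks were that close for 2 bases (14%), 7 of 84 for 3 (8.33%), 6 of 104 for 4 (5.77%), 2 of 11 for 5 and 1 of 30 for 6, with 0 of 6 for 1 base. The median score of the 23 was 121. The largest share of members, 117 or 41.1%, lay 10 to 50 kb away, and 60 (21.1%) lay beyond 100 kb, against 642 of the others (24.1%). Midpoints were upstream of the nearest start for 40.7% of the members and 44.8% of the others.

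The 9 simple-repeat peaks within 1 kb of a start site (3.16%, against 1.73% of the others) were all in introns and downstream of the start, a position the file's classes largely fix, since peaks around a start are classed as promoter peaks and carry no repeat name. On TTTG these were Gm2109 at 0.353 kb with a score of 257, Hoxd3os1, an antisense transcript of the Hoxd cluster, at 0.462 kb with 159, Psat1, an enzyme of serine synthesis, at 0.63 kb with 45, and Iigp1, an interferon-induced GTPase, at 0.655 kb with 121. On TTG they were Nmi, an interferon-induced protein, at 0.632 kb with 288, Arhgap42, a GTPase-activating protein, at 0.702 kb with 164, and Clspn, which encodes the checkpoint protein claspin, at 0.831 kb with 102. The remaining pair were Mgat1, an enzyme of N-glycan synthesis, on TG at 0.39 kb with 109, and Adam5 on TTTTG at 0.701 kb with 81. The Arhgap42 peak lay in intron 2 of another gene, Gm16833. For the lengths with no peak within 1 kb, the closest were a T peak 9.73 kb upstream of Zfp184 (323) and a TTTTTG peak 1.67 kb upstream of a start of Mtus1 (129), inside intron 5 of that gene.

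Simple-repeat peaks lay in introns about as often as the rest of their class. The intron share was 44.9% (interval 39.0% to 50.9%), against 43.0% of the others (interval 41.1% to 44.9%) and 43.2% of all intron and intergenic peaks, while transposable-element peaks had 33.9% (interval 29.5% to 38.6%). By unit length it was 48% for 2 bases, 45.2% for 3, 44.2% for 4 and 46.7% for 6, with 1 of 6 for 1 base and 5 of 11 for 5 bases. Intron 1 held 51 members (17.9%, interval 13.6% to 22.9%), against 15.8% of the others. Of the peaks inside an intron, intron 1 held 39.8% for simple repeats and 36.7% for the others. By length it held 22% for 2 bases, 19.0% for 3, 14.4% for 4 and 23.3% for 6.

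**Figure D4:**
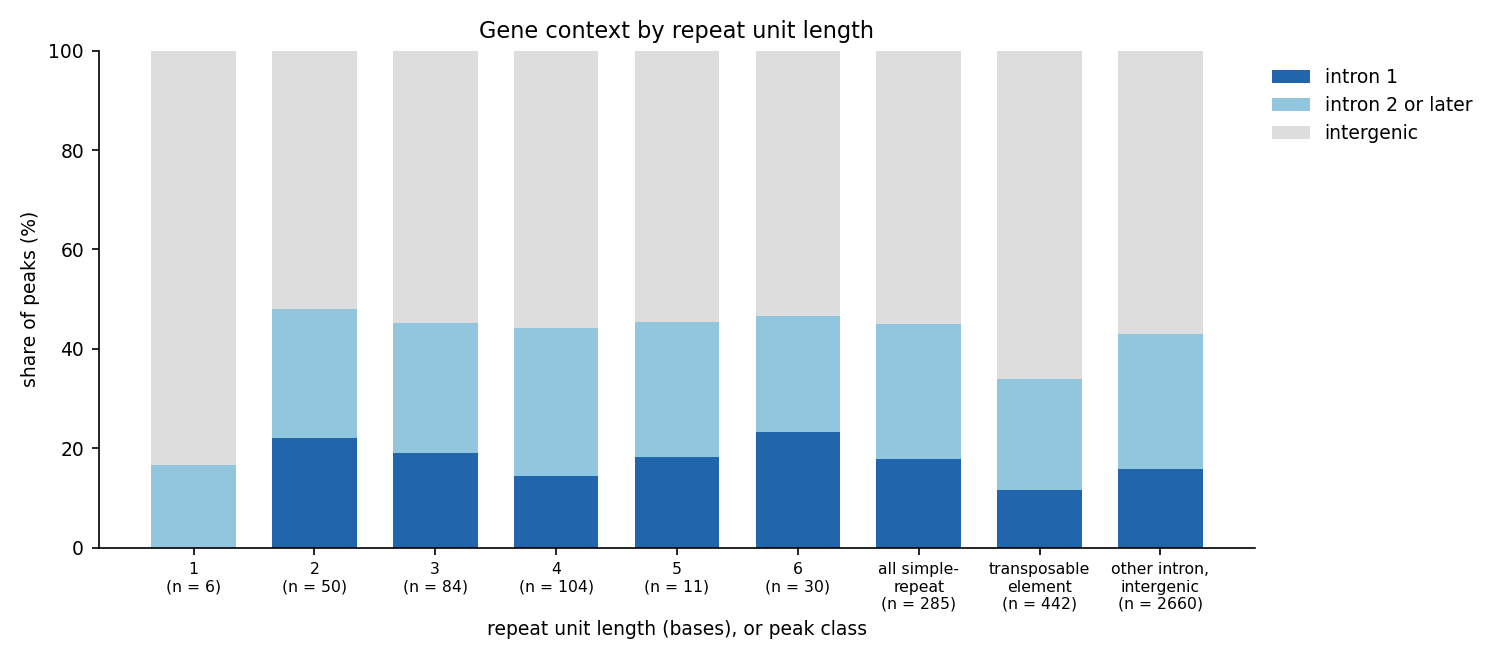
Share of peaks in intron 1, in a later intron and between genes, by repeat unit length, for all simple-repeat peaks, for transposable-element peaks and for the other intron and intergenic peaks. Apart from the 6 peaks on units of 1 base, the intron shares lie between 44.2% and 48% for every unit length, close to the 44.9% of all members and the 43.0% of the other peaks.

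In introns, the T-rich strand of the repeat was more often the gene's sense strand, whose sequence the RNA shares, than the opposite one. This could be read for 106 intron peaks whose gene has a known strand: the T-rich strand was the sense strand for 70 (66.0%, interval 56.2% to 74.96%). For TnG repeats it was 53 of 75 (70.7%, interval 59.0% to 80.6%), with 24 of 35 for TTG and 21 of 28 for TTTG, and for TG it was 10 of 21 (47.6%, interval 25.7% to 70.2%). The Ror2 and Col3a1 peaks both had the T-rich strand as sense. The file does not state on which strand the repeat letters are written, and they were taken as the plus strand. How such repeats lie in all mouse introns was not compared, so these shares may be those of introns at large.

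The 285 peaks were nearest to 279 genes, and no gene had more than 2 of them. Of the peaks, 227 were nearest to a protein-coding gene. The 6 genes with 2 were Cblb, a ubiquitin ligase (83 on TG in intron 3, 47 on TTGG in intron 17), Marcks, a protein kinase C substrate (98 on TTG, 30 on TTTG), Pdgfd, a platelet-derived growth factor (181 and 46, both on TTTG), Phldb2 (202 on TGG, 63 on TTTG), Prickle2, a planar polarity protein (75 on TG, 62 on TTG), and Tead1, a partner of the Hippo pathway coactivators (57 on TTTG, 37 on TG), with scores in brackets. Only the pair at Pdgfd shared a unit, one 3.53 kb upstream and one in intron 1. For 118 of the 279 genes (42.3%) other peaks of the list were nearest too, 10 peaks in all for Marcks.

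The nearest start site was not always that of the gene that held the peak. For 27 of the 128 intron peaks it belonged to another gene: a peak in intron 3 of Fndc3b scored 463 and was assigned to Mir3092, and one in intron 3 of Nav1 scored 289 and was assigned to Mir1231. In all, 11 members were nearest to a microRNA gene, and none of the 11 overlapped a microRNA hairpin. Fndc3b encodes a fibronectin type III domain protein and Nav1 a neuron navigator protein. Counts by nearest gene thus give such a peak to a gene other than the one that holds it.

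The gene lists that fit this tissue held between 0 and 5 genes with a simple-repeat peak each. Of 21896 protein-coding genes, 221 (1.01%) were nearest to a simple-repeat peak. All 3317 peaks together were nearest to 2462 genes of any type. The share of protein-coding genes nearest to a peak of any kind is not given here. Counts of list genes with a peak of any kind therefore have no such share to be set against. In the extracellular matrix list 5 of 57 genes (8.77%) had one and 26 had a peak of any kind: besides Col3a1 they included Adamts5, an aggrecan-cutting protease (164 in intron 2), Fbln1, encoding the matrix protein fibulin (123 on TG in intron 14), and Col6a1, a beaded-filament collagen (104). Among insulin and IGF genes it was 3 of 36 (8.33%): Igf2, the growth factor, with a score of 312 at 5.70 kb upstream, Pik3r1, the regulatory subunit of PI3 kinase, with 47, and Igfbp3, a binding protein for IGFs, with 15 at 455 kb, the lowest score of any member. Of the lipid metabolism genes 2 of 33 had one, Plin2, which coats lipid droplets, with 280 at 18.03 kb downstream of the start, and Gpam, an acyltransferase of triglyceride synthesis, with 132 at 341 kb.

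In the adipogenic list 3 of 40 genes (7.5%) had a simple-repeat peak, against 24 with a peak of any kind: the transcription factors Stat5a (102 in intron 6), Zbtb16 (55 in intron 2) and Klf9 (54 on TC). Zbtb16 and Klf9 were also among 3 of 30 glucocorticoid-induced genes (10%), with Errfi1, an inhibitor of the EGF receptor, at 43. In the thermogenic and beige list it was 1 of 36, Irf4, an interferon regulatory factor, at 52. The progenitor list had 1 of 28, the transcription factor Twist1, at 103. Of these scores, those of Stat5a and Twist1 were above the members' median of 94 and the others below it.

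The Wnt list had 2 of 49, Ror2 and, at 578 kb, the receptor gene Fzd8 (222), and the TGFβ and BMP list 2 of 46, Id3, an inhibitor of helix-loop-helix factors (93), and the receptor gene Tgfbr2 (72 in intron 1). The axon guidance list had 3 of 51, Sema3d (102), Slit2 (72) and Slit3 (69), all secreted guidance cues, of which Slit3 held the peak in intron 1 and Sema3d and Slit2 lay 164 kb and 1003 kb away. Forkhead genes had 0 of 30, though 7 of them had a peak of some other kind. Lists for other cell types that a stromal preparation can hold had 0 of 20 for macrophages, 0 of 20 for endothelium, 0 of 15 for smooth muscle and pericytes and 0 of 24 for neurons. Genes with a peak of any kind numbered 0, 2, 1 and 1 in these lists, counts that describe the lists only, without a share over all genes. At the 1.01% of all protein-coding genes, lists this short would often hold none, so these zeros say little. The mesothelial and epithelial list had 2 of 15, Esr1, the oestrogen receptor (285 in intron 2), and Upk1b, a uroplakin (64 in intron 3 of Tex55). The shares of several lists were thus above the 1.01% of protein-coding genes, but these lists also had many peaks of any kind. For the lists with 3 or more such genes, simple-repeat peaks were 5 of 53 peaks for matrix, 3 of 47 for adipogenic and 3 of 24 for glucocorticoid-induced genes. They were 3 of 27 for insulin and IGF and 3 of 16 for axon guidance genes, beside 8.59% of the whole peak list. Each list's share rests on at most 5 genes, gene length and the number of other peaks near each list were not allowed for, and the lists were chosen with earlier results known, so they describe these genes and were not tested.

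Simple-repeat peaks had another peak beside them about as often as the rest of the list. Another peak of any kind lay within 10 kb of 26 of them (9.12%, interval 6.05% to 13.1%), against 317 of the other intron and intergenic peaks (11.9%) and 11.7% of all peaks. By length it was 14% for 2 bases, 14.3% for 3 (12 of 84, interval 7.61% to 23.6%) and 2.88% for 4 (3 of 104, interval 0.599% to 8.20%). It was 0 of 6 peaks for 1 base, 2 of 11 for 5 and 2 of 30 for 6. The interval for 4 bases thus lay below the 11.9% and the 11.7%, and this difference was not tested. No simple-repeat peak had another simple-repeat peak within 10 kb. With any neighbour at only 26 members, and members being 8.59% of the list, this absence says little. In 19 of the 26 the simple-repeat peak scored higher than its nearest neighbour, as at Rnd1 (898 against 45) and Rn4.5s (875 against 101). At Erg28, which encodes an ergosterol biosynthesis homologue, it scored lower (147 against 552). Members score higher than the list at large (median 94 against 65 for all peaks), and pairs of other peaks were not compared. By chromosome, each of the 19 autosomes held 6 to 24 members, from 5.22% to 12.1% of its peaks. The X held 0 of 37 peaks, with an exact interval of up to 9.49%, and the Y held 2 of 3.

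Because promoter peaks carry no repeat annotation in the file, promoters were searched for the same repeats by sequence. RefSeq promoter windows of GRCm38.p6, the assembly behind mm10, run from 250 bases before to 50 bases after a start, 300 in all, and 32851 windows of 27025 genes were read. A run was a perfect tandem stretch of at least 16 bases of a unit in either orientation. A peak of any kind overlapped 245 windows, 0.746% of them. Windows with a TTTG run were overlapped in 8 of 105 cases (7.62%, interval 3.35% to 14.5%), and windows with any TnG run in 11 of 160 (6.88%, interval 3.48% to 11.97%). For TTTTTG it was 2 of 14 (14.3%), for TTTTG 1 of 23 (4.35%) and for TTG 0 of 28 (interval up to 12.3%). TG runs, the control nearest in kind, had 1 of 155 (0.645%), runs of T 7 of 459 (1.53%), TC 0 of 71 and TTTA 0 of 47. The intervals of TTTG runs, of TTTTTG runs (1.78% to 42.8%) and of all TnG runs together thus lay above the share of all windows, and those of TG runs, TTG runs, TTTTG runs and T runs included it. Windows are not independent, since a gene can have several and 1 peak on 1 TTTG run was counted for both Cyb5d2 and Zzef1. The intervals treat them as independent, so they describe these counts and are not a test.

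**Figure D5:**
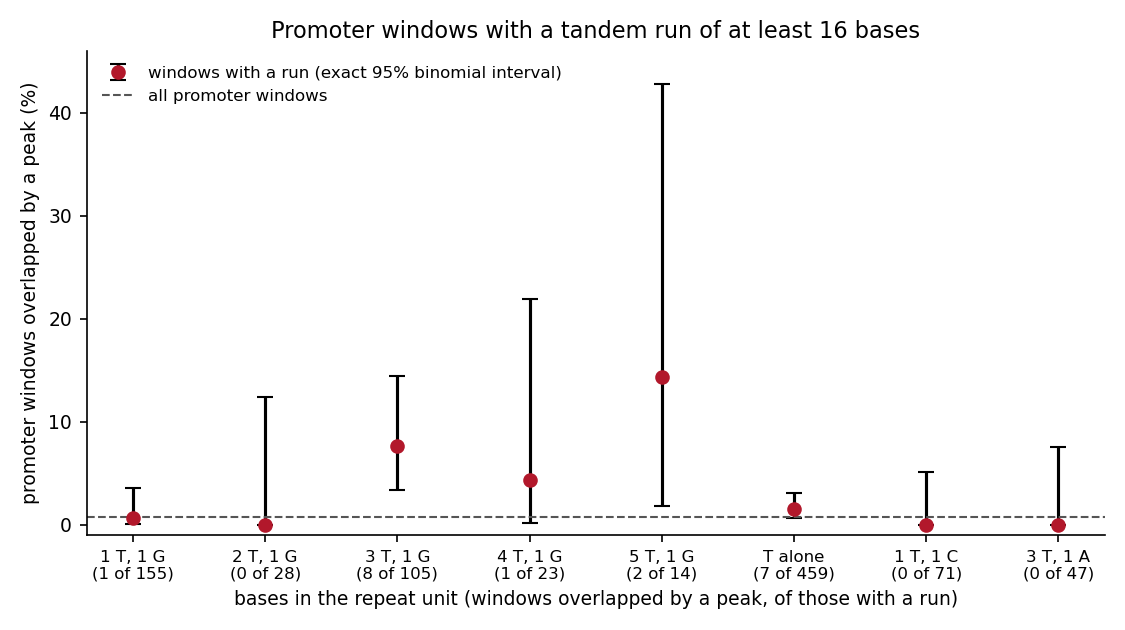
Percent of promoter windows overlapped by a peak among windows with a tandem run of at least 16 bases, by the bases of the repeat unit, with exact 95% intervals; the dashed line is the share of all windows, 0.746%. The unit of 3 T and 1 G stands at 7.62% and that of 5 T and 1 G at 14.3% on 14 windows, and the unit of 1 T and 1 G lies near the line at 0.645%.

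The 11 windows with a TnG run that a peak overlapped belonged to 11 genes and 10 peaks, 8 of them promoter peaks. In each of these 11 windows the run lay inside the peak, 32 to 93 bp from its midpoint. The peaks that were not promoter peaks were intergenic and carry no simple-repeat name. They overlapped the windows of Gm36560 (score 196, annotated to a SINE) and Gm26802 (score 46, no repeat named), each on a TTTG run of 27 bases. The other intron and intergenic peaks used for comparison thus include peaks on such runs, and how many was not counted. The 8 promoter peaks scored from 35 to 1081 with a median of 190, beside a median of 55 (quartiles 38 and 111) for all 278 promoter peaks. For the 6 highest-scoring of these promoter peaks the run is shown with 15 bases or less on either side, because these are the promoter counterparts of the simple-repeat peaks; each reads 5′ to 3′ along its gene's strand (RefSeq, GRCm38.p6), and capitals mark the run.
Cdc5l: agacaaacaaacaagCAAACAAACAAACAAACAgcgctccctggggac
Prcc: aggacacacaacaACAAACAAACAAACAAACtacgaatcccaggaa
Cyb5d2: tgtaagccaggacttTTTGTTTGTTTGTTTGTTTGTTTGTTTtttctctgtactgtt
Med17: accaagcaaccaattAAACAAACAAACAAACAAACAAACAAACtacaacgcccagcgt
Pde4b: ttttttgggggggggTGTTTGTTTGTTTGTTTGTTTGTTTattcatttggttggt
Trim13: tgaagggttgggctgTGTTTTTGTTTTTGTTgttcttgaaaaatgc
The Cdc5l stretch, from the promoter of a pre-mRNA splicing factor, lies at chr17:45433866-45433913 on the minus strand, under a peak of score 1081 that the file assigns to the neighbouring transcript B230354K17Rik. This is the highest score of any promoter peak. The Prcc stretch lies at chr3:87885767-87885812 on the minus strand under a score of 558, and that of Cyb5d2 at chr11:72795961-72796017 on the minus strand under 362. In the Prcc stretch the lower-case a just before the capitals also continues the repeat. The window of Zzef1, whose start faces that of Cyb5d2, holds the same run. The Med17 stretch, from the promoter of a Mediator subunit, lies at chr9:15280077-15280134 on the minus strand under a score of 239. The Pde4b stretch, from the promoter of a cAMP phosphodiesterase, lies at chr4:102569815-102569869 on the plus strand under 141, and that of Trim13, a ubiquitin ligase, at chr14:61599346-61599391 on the plus strand under 105. Of these 6, Trim13 has a TTTTTG run and the others have TTTG runs, and both orientations along the gene occur. A run of letters in a window is a description of that DNA, not a bound site.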

How the data were processed

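The authors' deposited list for the ChIP library was read as it stands, all 3317 peaks, leaving out 1 line that holds no peak. It gives mm10 positions, a score per peak, the distance to the nearest start site and HOMER annotation of a narrowPeak file, per the file headers. The submitters' processing notes name Bowtie2, Picard, SAMtools, MACS2 and deepTools 3.3.0 without roles. How the deposited score was made, and how the input entered the calls, is not stated in the sources used here, so the score ranks and describes peaks within this list only. Nearest genes, gene class and distances are the file's. Repeat units, exact intervals and rank correlations were computed with Python 3.11.15, pandas 2.3.3 and scipy 1.17.1, and the interval functions and unit rules were tested on simulated data. Gene types and promoter sequences came from RefSeq GRCm38.p6, in which all 285 nearest genes and all 511 symbols of the 16 gene lists were found. Host strand was known for 107 of the 128 intron peaks, from the promoter table for 96. For the other 11 it came from the end of the host gene at which the start site implied by the distance lay. Where both could be read they matched for 237 of 237 peaks.

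No test across samples was possible with 1 library. Named genes are those nearest to the 10 highest members, the 3 highest per unit length from 2 to 6, the closest to a start per length, all within 1 kb, genes with 2 members, and up to 4 per list. Members named beyond it (Fndc3b, Nav1, Erg28 and the promoter genes) were chosen after their values were seen. The members and lists were chosen with earlier results of these data known. Alternatives covered score limits, distance windows, repeat classes, unit rules and run lengths. Some items are not reported here.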

Additional observations from a re-analysis of the deposited data

How the results depend on the processing

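Of 77 main results recomputed under the alternatives, 60 moved by less than their counting interval or 1.5 times. Keeping only peaks at or above the median score moved the most. Simple-repeat peaks then made up 12.2% of the list, with a median distance of 20.7 kb, a median width of 411 bp, a median score of 128 (129 with the core in the array, 125.5 without it), 63.5% in the upper quartile of score and 5.42% with another peak within 10 kb. Other windows gave 3.16% within 1 kb and 22.5% within 10 kb of a start site, and 5.61% and 31.2% with another peak within 5 and 50 kb. Intergenic members alone had a median distance of 41.6 kb and 1.27% within 3 kb. Without peaks in the upper quartile of score the median width was 333 bp. Peaks in an intron or within 20 kb of a start named 179 genes in place of 279. Promoter runs of at least 12 bases, a length chosen after seeing the data, gave 3.46% for TnG windows. A score limit raises scores, and a wider window raises shares, by construction. For the other moves the cause was not tested. With strands kept apart there were 28 units in place of 20. No value could be had for the cores TGTTTA and TGTTTAC, which no array holds. No paired analysis was possible because the list comes from 1 ChIP library. The limits are 1 library, unknown read depth and no genome sequence under the members.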
